A study of Mus musculus with 54 samples.

Results

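Livers of mice given the lowest and the highest dose of di-isononyl phthalate (DINP), a plasticizer of soft polyvinyl chloride, were compared directly with each other, without the control group. The comparison took the 13 mice at 1.5 mg/kg bw/d and the 14 mice at 150 mg/kg bw/d from the 54 mice that were sequenced. It took every gene with a mean value of at least 1 over these 27 mice, which was the case for 11416 of the 20162 entries of the deposited table. All mice were wild-type C57BL/6J males on a high-fat diet that began at 8 weeks of age, and DINP was eaten once a day in a gelatin pellet for 20 weeks. The other 14 mice received a pellet without DINP and the other 13 a pellet with 15 mg/kg bw/d, and both groups serve here as reference levels only. The mice share 1 sex, 1 inbred strain, 1 diet and 1 time point, and the RNA came from the medial lobe, so that the values describe bulk liver tissue.

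The liver takes up fatty acids, burns them in mitochondria and peroxisomes, and stores or exports the rest as triglyceride. Peroxisome proliferator-activated receptor alpha (PPARα) is the fatty acid sensor of hepatocytes that switches on the genes of fatty acid ω-hydroxylation, peroxisomal and mitochondrial β-oxidation, carnitine transport and ketogenesis, and many phthalate monoesters activate it in rodents. It binds DNA together with the retinoid X receptor, typically at direct repeats of a hexamer with a single base in between.

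In the following, low dose stands for 1.5 and high dose for 150 mg/kg bw/d. The deposited values are signals on the TPM scale, that is read counts per gene brought to a common total, and their step pattern was read as rounding followed by scaling between mice, which the sources used here do not state. Totals ranged from 849922 to 1005966 per mouse in the low dose group (median 953524) and from 944620 to 1037174 in the high dose group (median 1003642), and the number of reads behind them is unknown. Albumin (Alb), the main plasma protein made by hepatocytes, ranged from 15106 to 23155 at the low dose and from 16765 to 23959 at the high dose. All 10 hepatocyte markers examined, Ttr, Trf and Apoa1 among them, were expressed in all 27 mice. None differed beyond both thresholds given next (3 at an unadjusted p under 0.05 in limma, 0 called by the Wilcoxon test). Trf and Apoa1 were lower at the high dose at an adjusted p under 0.05 in limma (0.000529 and 0.0411). Their differences in log2(value + 1) of -0.32 and -0.35 were short of the second threshold.

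The doses differed in 200 genes, or 1.75% of those tested, when both an adjusted p under 0.05 (limma, Benjamini-Hochberg adjustment over all 11416) and a difference beyond 0.5 in log2(value + 1) were asked for. This difference, high minus low dose, is called the log2 fold change (log2FC). These differentially expressed genes (DEGs) comprised 114 genes that were higher at the high dose (0.999%) and 86 that were lower (0.753%). The split depended on the scaling. With the totals of all mice made equal, 63 genes were higher (0.552%) and 203 lower (1.78%), and the median log2FC of all genes tested moved from -0.01 to -0.09. Without the log2FC threshold, 385 genes were higher (3.37%) and 310 lower (2.72%). Irrespective of p, 5514 of the genes tested had a log2FC above 0. Among the upregulated DEGs the median log2FC was 0.66 and 21 were beyond 1, and among the downregulated DEGs the median was -0.62 and 8 were beyond -1. By annotation, of the upregulated DEGs 93 were protein-coding (81.6%) and 4 were pseudogenes, and the median of their mean values was 24.3. Of the downregulated DEGs 60 were protein-coding (69.8%) and 16 were pseudogenes, and the median of their mean values was 7.68. In all, 87.6% of the genes tested were protein-coding.

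**Figure D1:**
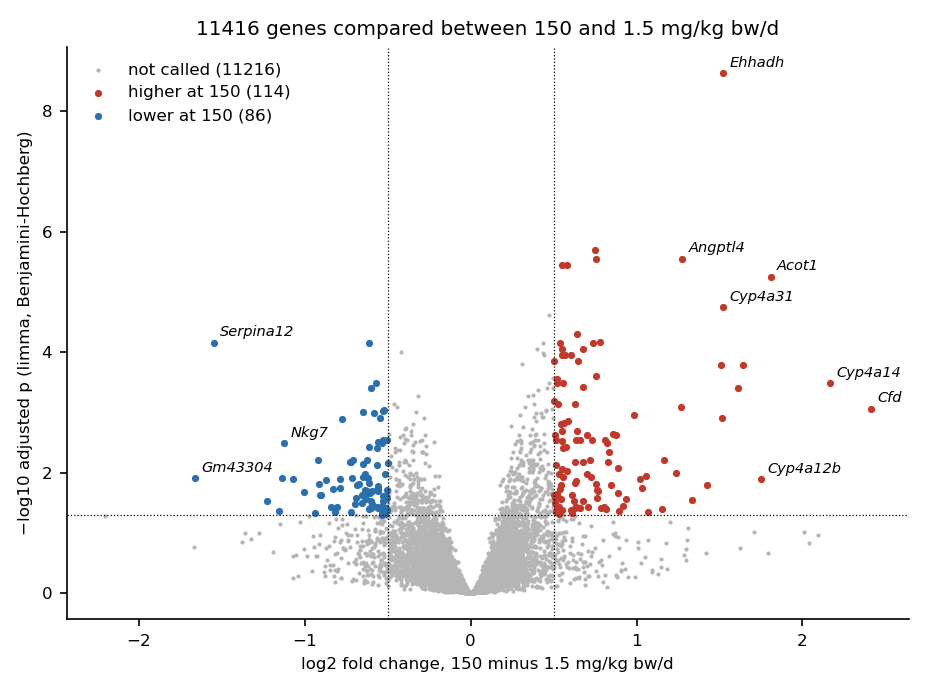
Log2 fold change (x axis, high minus low dose) against -log10 of the adjusted p from limma (y axis) for the 11416 genes tested. Each point is 1 gene, red points are the 114 DEGs that were higher and blue points the 86 that were lower at the high dose, and dotted lines mark an adjusted p of 0.05 and a log2FC of 0.5 in either direction. Ehhadh lies highest, Cfd and Cyp4a14 lie farthest to the right, and Gm43304 and Serpina12 are the DEGs farthest to the left.

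Before single genes are described, 5 of the 13 mice at the low dose have to be set apart. In replicates 1, 4, 9, 10 and 13 the acute phase gene Saa1 lay between 402 and 2721, more than 5 times the group's median of 75.1, whereas the other 8 mice lay between 34.3 and 93.4. At the high dose Saa1 lay between 40.6 and 254 and no mouse was beyond 5 times that group's median of 103. In each of the reference groups 1 mouse was, control replicate 8 (933, group median 157) and replicate 7 at 15 mg/kg bw/d (651, group median 109.9), and both also had the highest Saa2, Orm2, Apoa4 and Cidec of their groups. The same 5 mice held the 5 highest values of their group for Saa2, for the acute phase gene Orm2, for the intestinal and hepatic apolipoprotein Apoa4, for the lipid droplet gene Cidec and for the fatty acid receptor Cd36. Apoa4, for example, lay between 424 and 1366 in these 5 mice and between 78.9 and 185 in the other 8, and its log2FC was -1.28 (SE 0.46, adjusted p = 0.102) with and -0.24 (adjusted p = 0.784) without the 5 mice. Cidec lay between 9.53 and 41.1 in the 5 mice and at most at 4.06 in the others. These 5 mice also had the 5 lowest totals of their group, from 849922 to 915170, against at least 948501 in the other 8. Control replicate 8 (747258) and replicate 7 at 15 mg/kg bw/d (849928) had the lowest totals of their groups as well. Scaling to equal totals therefore raises the values of the 5 mice relative to the other 8. Why low totals and high Saa1 fell on the same mice was not tested. The genes were picked for this description after their values were seen. In bulk tissue, more cells of a type and more RNA per cell cannot be told apart.

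Leaving these 5 mice out (8 against 14 mice, an alternative chosen after the data were seen) gave 372 DEGs, of which 213 were higher (1.87%) and 159 lower (1.39%) at the high dose. They included 150 of the 200 DEGs above, 88 of the upregulated and 62 of the downregulated. Since the mice were chosen by a measured value, the larger count is a description of the 8 mice that remain and not a better estimate. Where the left-out mice held the highest or lowest values of their group, the log2FC had to shift without them, and the adjusted p is descriptive only. Values without these mice are given beside a gene or list below, or here for the following.

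Without the 5 mice, 9 of 23 genes of peroxisomal β-oxidation, 5 of 22 of mitochondrial β-oxidation and 13 of 35 of uptake and lipid droplets were upregulated, against 1.87% of all genes. Of the drug-metabolizing cytochromes P450 5 were higher, Cyp3a11 among them, and 4 lower, among them Cyp1a2, Cyp2c54 and Cyp2d40. Of the conjugation enzymes 6 were higher and 2 lower. Of the complement list Cfd was higher, and C6, C8a, C8b and C9 of the membrane attack complex were lower. Cidec and Pparg joined Cfd among the adipocyte markers. The cholesterol list held 2 upregulated genes, and its median log2FC was 0.11. Of the growth hormone and STAT5 list C8a, Hsd3b5, Selenbp2 and Serpina1e were lower. The carnitine carrier Slc25a20 passed the log2FC threshold (0.51). In other lists described below as holding no DEG, Hspa4l and Pdia4 of protein folding were called, as were the iron hormone Hamp and the markers Serpina1c, Cela1 and Fabp2. Conversely, Pdp2 (0.45, adjusted p = 0.00495), Scarna2 (0.84, adjusted p = 0.116), Snord89 (0.50, adjusted p = 0.132), Elovl3 (0.63, adjusted p = 0.188) and Oat (0.54, adjusted p = 0.0503) were no longer DEGs.

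**Figure D2:**
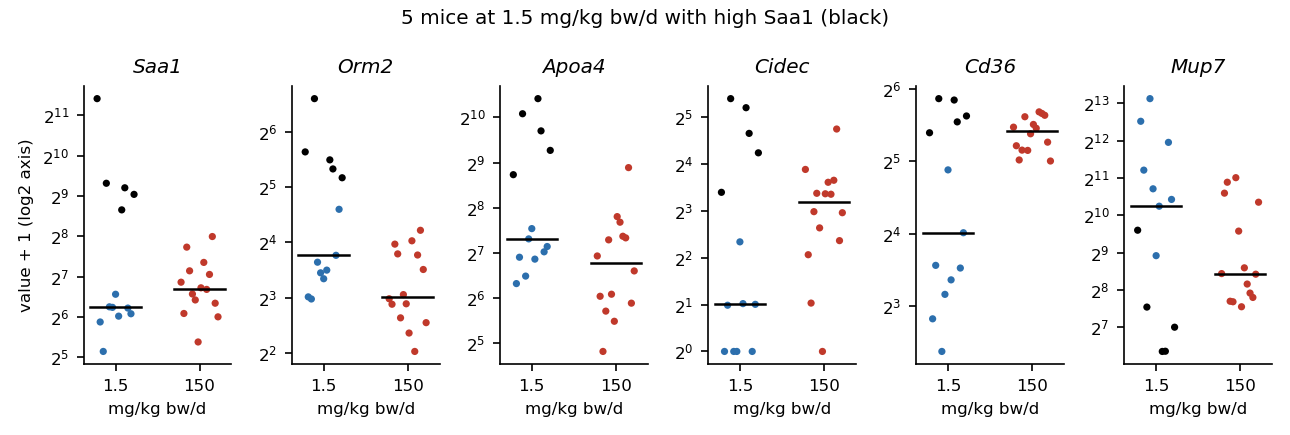
Value + 1 (y axis, log2 scale) of 6 genes in each mouse at the low and the high dose (x axis). Each point is 1 mouse, horizontal lines are group medians, and black points are replicates 1, 4, 9, 10 and 13 of the low dose group, in which Saa1 was more than 5 times the group's median. The black points are the 5 highest of their group for Saa1, Orm2, Apoa4, Cidec and Cd36, and lie among the 6 lowest for Mup7.

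The ranges of the doses did not overlap for 4 of the 11416 genes (0.035%), among them Ehhadh, Chpt1 and Akr7a5. Ehhadh, the bifunctional enzyme of peroxisomal β-oxidation, ranged from 11.5 to 23.8 at the low dose (median 15.2) and from 33.0 to 73.1 at the high dose (median 48.9). Chpt1, which completes phosphatidylcholine from diacylglycerol, ranged from 43.2 to 77.3 (median 59.5) and from 77.6 to 94.9 (median 87.0). For both genes every mouse at the high dose was above every mouse at the low dose, and both were DEGs. Ehhadh had the lowest adjusted p of all genes (log2FC 1.52, SE 0.12, adjusted p = 2.33e-09). The change of Chpt1 was smaller (0.54, SE 0.076, adjusted p = 6.96e-05). The aldehyde reductase Akr7a5 ranged from 184 to 288 and from 289 to 388, and its log2FC of 0.44 (SE 0.061, adjusted p = 6.96e-05) was short of the threshold. Akr7a5 was picked because of its ranges.

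**Figure D3:**
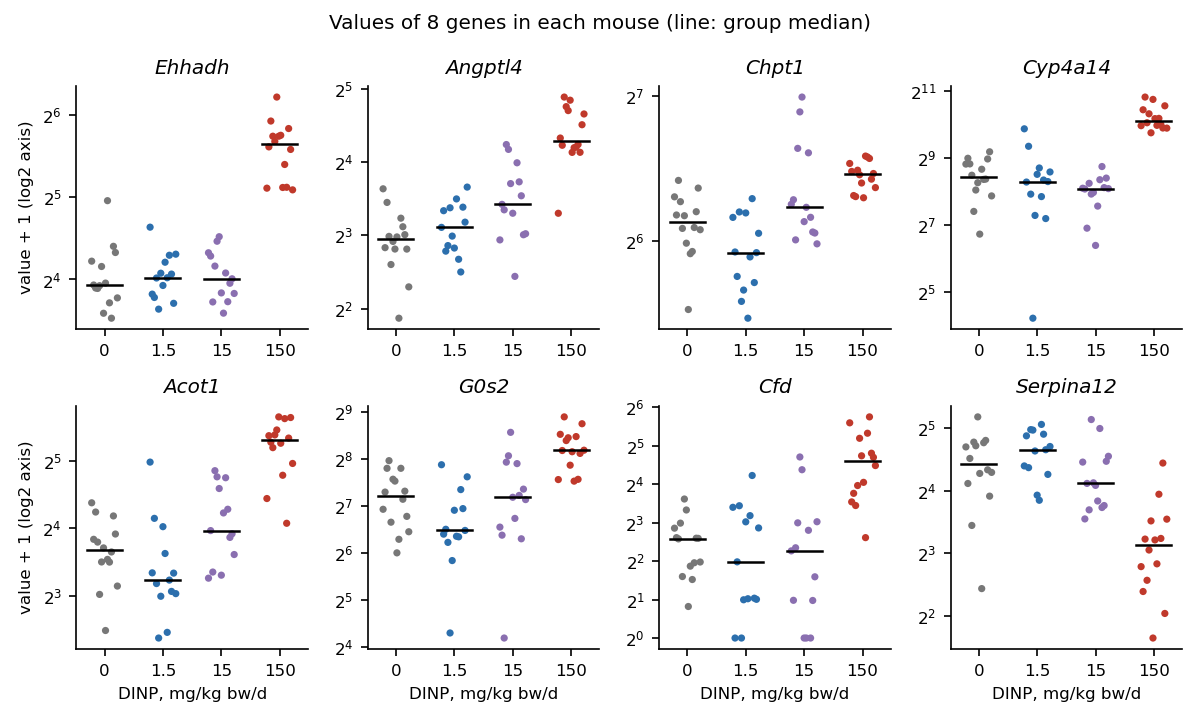
Value + 1 (y axis, log2 scale) of 8 genes in each mouse of all 4 groups (x axis, DINP in mg/kg bw/d, 0 for the control). Each point is 1 mouse and horizontal lines are group medians. The 14 mice at the high dose lie above all 13 mice at the low dose for Ehhadh and Chpt1, the high dose has the highest median of the 4 groups for every gene but Serpina12, where it has the lowest, and for Chpt1 some mice at 15 mg/kg bw/d reach the levels of the high dose.

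The Cyp4a enzymes put a hydroxyl group on the far end of fatty acids, and all 5 of the listed genes that could be tested were upregulated at the high dose (median log2FC 1.61, against -0.01 for all genes tested). They stand in a row on chromosome 4 of GRCm38 and are close paralogs, between which the counting may have split reads. Cyp4a14 (chromosome 4, 115486200 to 115496142, minus strand) ranged from 17.7 to 938 at the low dose (median 315) and from 864 to 1809.9 at the high dose (median 1111). The groups overlapped by a single low-dose mouse, replicate 1, which had 938 (log2FC 2.17, SE 0.35, adjusted p = 0.000332). Cyp4a10 (115518264 to 115533649, plus strand) ranged from 22.9 to 278 and from 204 to 705 (log2FC 1.61, SE 0.26, adjusted p = 0.00039). Cyp4a31 (115563649 to 115579015, plus strand) ranged from 1.05 to 6.67 and from 5.91 to 20.9 (log2FC 1.52, SE 0.19, adjusted p = 1.77e-05). In Cyp4a14, Cyp4a10 and Cyp4a31 all 14 mice at the high dose were above the low-dose median. The male-biased genes Cyp4a12b (log2FC 1.75, adjusted p = 0.0128) and Cyp4a12a (1.02, adjusted p = 0.0127) overlapped more, with 12 and 13 of the 14 mice above that median, and were no longer DEGs without the 5 mice set apart (log2FC 0.91, adjusted p = 0.177, and 0.89, adjusted p = 0.0532). For Cyp4a12b these 5 mice held the 5 lowest low-dose values, from 0 to 2.86, against at least 3.05 in the others. Leaving them out had to lower its log2FC, so the lost call follows in part from the choice of mice. Its adjusted p without them is descriptive only. All 5 Cyp4a genes varied more between mice at the low than at the high dose, with a median SD of 0.92 against 0.49 on the log2 scale.

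In peroxisomal β-oxidation, which shortens very long and ω-hydroxylated fatty acids, 6 of 23 genes tested were upregulated and none downregulated, against 0.999% and 0.753% of all genes, and the median log2FC was 0.34. They included Ehhadh, the thiolase Acaa1b, the thioesterases Acot3 and Acot4 and the carnitine octanoyltransferase Crot, and with equal totals 5 genes of the list were higher. Acaa1b ranged from 542 to 1104 at the low dose (median 618) and from 1008 to 1493 at the high dose (median 1299.6), so that the ranges overlapped only narrowly (log2FC 0.78, SE 0.11, adjusted p = 6.81e-05). In addition, Ech1, Eci2, Hacl1, Hsd17b4 and Slc27a2 were higher at an adjusted p under 0.05 with a smaller log2FC of 0.24 to 0.49. Among 18 genes of peroxisome assembly a single gene was upregulated. It was Pex11a, which promotes peroxisome division (178 to 556, median 284, against 459.7 to 909.8, median 589; log2FC 0.88, SE 0.17, adjusted p = 0.00238). Over the assembly list the median log2FC was 0.15, or 0.07 with equal totals.

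The cluster of acyl-CoA thioesterases on chromosome 12, enzymes that release free fatty acids from coenzyme A in cytosol, mitochondria and peroxisomes, differed as a block. Acot2 (83987861 to 83993873), Acot1 (84009490 to 84018371), Acot4 (84038379 to 84048601) and Acot3 (84052144 to 84060402) all lie on the plus strand, are near-identical in part and were all upregulated. The cytosolic Acot1 ranged from 4.17 to 30.5 at the low dose (median 8.38) and from 15.8 to 49.1 at the high dose (median 38.5; log2FC 1.81, SE 0.22, adjusted p = 5.57e-06). Replicate values of the mitochondrial Acot2 ranged from 5.06 to 26.9 and from 12.8 to 67.3 (log2FC 1.16, SE 0.26, adjusted p = 0.00629). Both genes had all 14 high-dose mice above the low-dose median, with overlapping ranges. For Acot3 and Acot4 the SE was larger relative to the change (log2FC 1.24, SE 0.29, adjusted p = 0.0103, and 0.73, SE 0.18, adjusted p = 0.0117). Of 113 upregulated DEGs with a position, 19 lay within 100 kb of another, most of them in the Cyp4a and Acot clusters, and 4 of 84 downregulated DEGs did.

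Mitochondrial β-oxidation changed broadly and by little. Of 22 genes tested 3 were upregulated and none downregulated, but 15 were higher at an adjusted p under 0.05 irrespective of size, against 3.37% of all genes, and 21 had a log2FC above 0 (median 0.29). The 3 DEGs were Acot2, the acyl-CoA synthetase Acsl1, which activates long-chain fatty acids (186 to 399, median 231, against 289.7 to 427, median 347; log2FC 0.53, SE 0.092, adjusted p = 0.000731), and the medium-chain dehydrogenase Acadm (384 to 783, median 544, against 503 to 947, median 768; log2FC 0.51, SE 0.10, adjusted p = 0.0029). With equal totals Acot2 alone remained above the threshold, and the median of the list was 0.20. Acadm also fell short of the log2FC threshold when any 1 of 7 mice was left out. The subunits of the trifunctional protein Hadha and Hadhb had log2FC values of 0.43 (adjusted p = 0.00119) and 0.31 (adjusted p = 0.00744).

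Carnitine carries fatty acids into mitochondria, and of 6 genes of its synthesis and shuttle only the plasma membrane carnitine transporter Slc22a5 was a DEG. It ranged from 2.10 to 6.67 at the low dose (median 3.58) and from 5.22 to 8.54 at the high dose (median 6.02; log2FC 0.68, SE 0.11, adjusted p = 0.000381). The inner membrane carrier Slc25a20 (log2FC 0.39, adjusted p = 0.00288) and Cpt2 (0.30, adjusted p = 0.0131) were higher without passing the log2FC threshold. Cpt1a, the gate of mitochondrial fatty acid import, ranged from 36.7 to 57.4 and from 34.5 to 53.4, with a log2FC of -0.06 (SE 0.079, adjusted p = 0.73). Its direction was not stable, since it was 0.08 without the 5 mice set apart. Aldh9a1 of carnitine synthesis had a log2FC of 0.05 (adjusted p = 0.72), which turned to -0.05 with equal totals.

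None of 20 PPARs and other lipid-sensing receptors was a DEG in limma or by the Wilcoxon test, and 5 had an unadjusted p under 0.05, against 20.3% of all genes tested. Ppara itself ranged from 105 to 204 at the low dose (median 148) and from 134 to 264 at the high dose (median 196), with a log2FC of 0.39 (SE 0.098, adjusted p = 0.017). The difference was smaller than the threshold, and with equal totals its adjusted p was 0.0735. Of ketogenesis and fuel switching, 2 of 14 genes were upregulated, against 0.999% of all genes. Both regulate pyruvate dehydrogenase. Pdk4, the kinase that shuts it off, was listed at 0 in 7 of 13 mice at the low dose and in 2 of 14 at the high dose, with medians of 0 and 2.09 (log2FC 1.04, SE 0.27, adjusted p = 0.0177). Pdp2, a phosphatase that reactivates it, ranged from 11.2 to 18.5 and from 15.8 to 28.8 (log2FC 0.52, SE 0.083, adjusted p = 0.000278), and was below the log2FC threshold with equal totals (0.43).

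**Figure D4:**
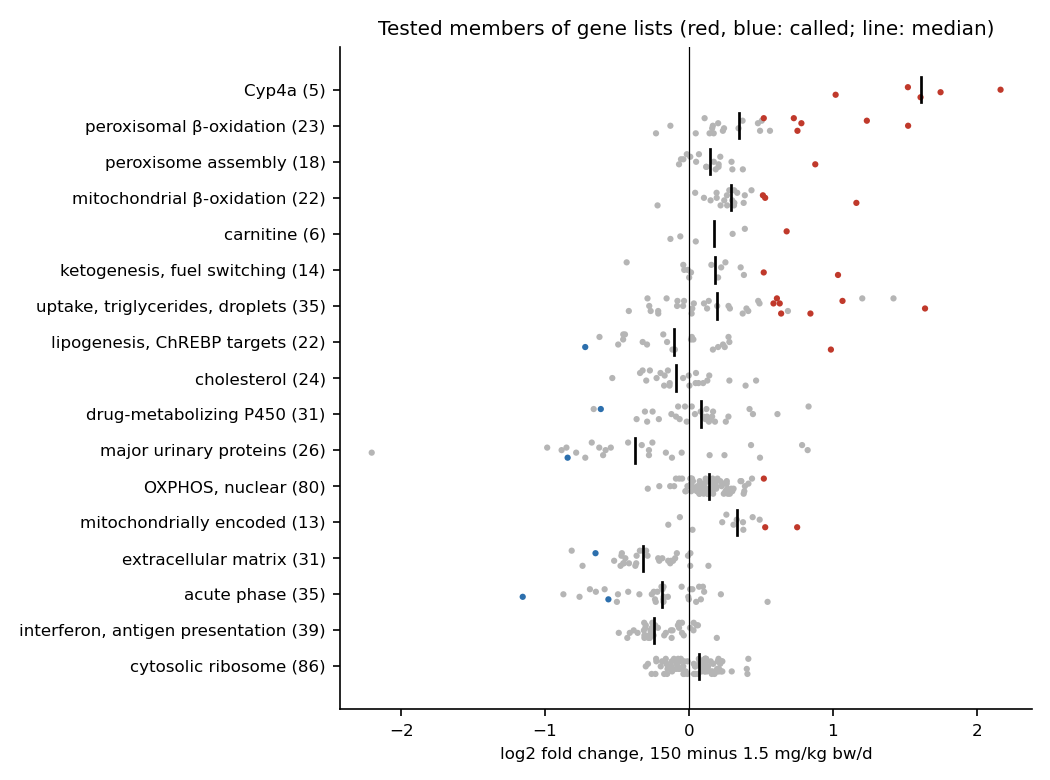
Log2 fold change (x axis, high minus low dose) of every tested member of 17 gene lists (rows, with the number of genes tested). Each point is 1 gene, red and blue points are DEGs that were higher and lower at the high dose, grey points were not called, and black lines are list medians. The median of the Cyp4a genes lies farthest to the right (1.61), the β-oxidation genes lie mostly to the right of 0, and the extracellular matrix, acute phase and interferon lists lie mostly to the left of it.

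Uptake, triglyceride synthesis and lipid droplets gave 7 upregulated and no downregulated genes of 35 (median log2FC 0.20), against 0.999% and 0.753% of all genes. With equal totals 3 genes of the list were higher, against 0.552% of all genes. G0s2, an inhibitor of adipose triglyceride lipase, ranged from 18.8 to 236 at the low dose (median 88.7) and from 185 to 478 at the high dose (median 291; log2FC 1.64, SE 0.25, adjusted p = 0.000165). Hsd17b11, a dehydrogenase on lipid droplets, ranged from 119.8 to 172 (median 141) and from 169.8 to 333 (median 221; log2FC 0.64, SE 0.087, adjusted p = 4.98e-05). In both genes all 14 high-dose mice were above the low-dose median. Cd36 behaved otherwise. It ranged from 4.17 to 57.2 at the low dose and only from 31.0 to 50.3 at the high dose, so that the high-dose mice lay inside the range of the low dose (log2FC 1.07, SE 0.32, adjusted p = 0.0446). Its call was lost on omission of any 1 of 20 mice, and by the Wilcoxon test (adjusted p = 0.337), and without the 5 mice set apart its log2FC was 1.91 (adjusted p = 3.27e-06). The droplet coat protein Plin2 was similar, with a log2FC of 0.37 (adjusted p = 0.211) over all mice and 0.73 (adjusted p = 0.00213) without the 5. For Cd36 these 5 mice held the 5 highest low-dose values, so leaving them out had to raise its log2FC. Its adjusted p without them is descriptive only. Fitm1 (log2FC 0.84, adjusted p = 0.0159), Gpat3 (0.63, adjusted p = 0.0391) and Vldlr (0.61, adjusted p = 0.0474), which form droplets, make glycerolipids and take up lipoproteins, were the remaining DEGs together with Fabp1.

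Fabp1, the abundant fatty acid binding protein of liver cytosol, ranged from 1078 to 1817 at the low dose (median 1382) and from 1647 to 4057 at the high dose (median 1937; log2FC 0.59, SE 0.11, adjusted p = 0.0014). Its mean was higher at 15 mg/kg bw/d (3929) and in the control (1899) than at the low dose (1396), with equal totals its log2FC was 0.49, and with all 4 groups in 1 fit its adjusted p was 0.0812. Fabp1 was the only upregulated DEG with a promoter match to the repeat that PPARα and the retinoid X receptor prefer, searched on both strands of the window from 250 bases before to 50 after the RefSeq gene start as the hexamer AGGNCA, 1 base of any kind and AGGNCA again. A stretch of this window is shown because it holds this match, and capitals mark the match, which reads on the minus strand and begins at position -67 from the RefSeq start (GRCm38.p6, chr6:71199772-71199826, plus strand):
Fabp1: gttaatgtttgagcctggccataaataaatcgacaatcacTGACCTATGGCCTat
Of the downregulated DEGs Cyp2d40 alone held a match, at position -117 from the RefSeq start (chr15:82764187-82764279, minus strand):
Cyp2d40: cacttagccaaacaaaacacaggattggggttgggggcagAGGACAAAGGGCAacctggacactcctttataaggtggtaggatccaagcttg
The letters were found in the promoters of 1 of 74 upregulated DEGs (1.35%), 1 of 50 downregulated DEGs (2%) and 31 of 8393 genes tested (0.369%) that matched an entry by symbol, and in 0.381% of all 32851 promoter windows. None of the 17 peroxisomal and 19 mitochondrial β-oxidation genes with a promoter held them, and the 5 Cyp4a genes matched no entry. Both stretches stop short of the start that GENCODE gives, which lies upstream of the RefSeq start. A match describes letters only, and these windows are short.

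Angptl4, a secreted inhibitor of lipoprotein lipase, ranged from 4.65 to 11.6 at the low dose (median 7.63) and from 8.86 to 28.6 at the high dose (median 18.5), and was the only DEG of 24 apolipoproteins, lipases and angiopoietin-like proteins (log2FC 1.28, SE 0.14, adjusted p = 2.8e-06). A single high-dose mouse reached into the low-dose range. In phospholipid and choline metabolism 2 of 28 genes were upregulated, against 0.999% of all genes. They were Chpt1 and the choline kinase Chkb (61.5 to 116, median 87.7, against 106 to 156, median 126; log2FC 0.55, SE 0.082, adjusted p = 0.000113). With equal totals both had a log2FC under the threshold (0.44 and 0.46). De novo lipogenesis and targets of the carbohydrate sensor ChREBP had a DEG in each direction among 22 genes. Txnip, a glucose-responsive inhibitor of thioredoxin, ranged from 42.6 to 80.3 and from 46.3 to 203 (medians 56.3 and 109; log2FC 0.99, SE 0.18, adjusted p = 0.00109). Pklr, the liver pyruvate kinase, ranged from 14.3 to 28.7 and from 6.41 to 27.9 (medians 22.9 and 13.4; log2FC -0.72, SE 0.16, adjusted p = 0.0068). The fructose-handling genes Khk and Tkfc were lower at an adjusted p under 0.05 as well (log2FC -0.32 and -0.44), and the median of the list was -0.11. No gene of cholesterol synthesis and uptake was a DEG in limma or by the Wilcoxon test over all mice (24 genes, median log2FC -0.09, 2 with an unadjusted p under 0.05), Insig1 alone was lower with equal totals, and the median was above 0 without the 5 mice.

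The largest log2FC of all belonged to Cfd, complement factor D or adipsin, the serine protease that starts the alternative complement pathway and a product typical of fat cells (chromosome 10, 79890853 to 79892655, plus strand). Cfd ranged from 0 to 17.7 at the low dose (median 2.94) and from 5.10 to 52.7 at the high dose (median 23.1). It was listed at 0 in 2 of the 13 low-dose mice and in no high-dose mouse, and the ranges overlapped (log2FC 2.41, SE 0.43, adjusted p = 0.000866). In control and 15 mg/kg bw/d mice the means were 4.76 and 5.90, near the 5.04 of the low dose. The adipocyte markers Adipoq, Lep, Retn and Plin1 had a median of 0 in both groups, with at most 3.05 and 3.13 for Adipoq, and Lep was listed at 0 in all 27 mice. The summed level of the 6 adipocyte markers tested, nearly all of it from Car3, which hepatocytes also express, ranged from 1800.4 to 4033 at the low dose and from 2376 to 3884 at the high dose, and Cfd was the only DEG among them. Of the 14 genes of the alternative pathway Cfd was the only DEG over all mice.

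Genes of the respiratory chain were slightly higher at the high dose, to an extent that depended on the scaling. For comparison, 5514 of all 11416 genes tested had a log2FC above 0. Of 80 nuclear subunits 70 had a log2FC above 0 (median 0.14) and a single gene, Cox7c of complex IV, was a DEG (291 to 458, median 363, against 421 to 898, median 494; log2FC 0.52, SE 0.084, adjusted p = 0.000332). With equal totals 51 of the 80 were above 0, the median was 0.04 and there was no DEG. Of the 13 genes encoded by mitochondrial DNA 2 were upregulated, against 0.999% of all genes. The median log2FC of the 13 was 0.33, or 0.24 with equal totals and 0.13 after quantile normalization. ATP8, a small subunit of ATP synthase whose gene overlaps ATP6, ranged from 9428 to 13964 and from 13794 to 22725 (medians 10552 and 18033; log2FC 0.75, SE 0.080, adjusted p = 2.01e-06). ND3 of complex I ranged from 1779.9 to 3751 and from 2969 to 9055 (log2FC 0.53, SE 0.13, adjusted p = 0.0107), and was not a DEG without the 5 mice set apart (0.43, adjusted p = 0.0707). For ND3 and Cox7c the mean at 15 mg/kg bw/d was the highest of the 4 groups (6585 and 701).

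Other upregulated genes included Krt23, a type I keratin (0 to 6.26, median 2.03, against 3.88 to 14.8, median 8.07; log2FC 1.51, SE 0.23, adjusted p = 0.000161), for which all 14 high-dose mice exceeded the low-dose median. Gm44816, an entry of 477 bases on chromosome 7, had a log2FC of 1.52 (SE 0.28, adjusted p = 0.00123) but lies within the β-oxidation electron carrier gene Etfb on the same strand, so that its reads cannot be told from those of Etfb. Of 40 conjugation enzymes the glutathione transferases Gstt2 (log2FC 0.57, adjusted p = 0.00372) and Gsta2 (0.77, adjusted p = 0.0201) were upregulated and Gstp3 was downregulated (-0.59, adjusted p = 0.0201). Of all genes tested 0.999% were upregulated and 0.753% downregulated. Among 67 small nucleolar and Cajal body RNAs Scarna2 (0.94, adjusted p = 0.0272) and Snord89 (0.53, adjusted p = 0.0493) were higher. Snord89 lost its call in 19 of 27 fits without 1 mouse, as did Oat of ornithine catabolism (0.51, adjusted p = 0.045) in 18 and the elongase Elovl3 (0.82, adjusted p = 0.0406) in 17.

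The most strongly lowered protein-coding gene was Serpina12, or vaspin, a secreted serine protease inhibitor that counts as an insulin-sensitizing adipokine (chromosome 12, 104028769 to 104044443, minus strand). Serpina12 ranged from 13.4 to 32.3 at the low dose (median 24.1) and from 2.14 to 20.7 at the high dose (median 7.79). All 14 high-dose mice were below the low-dose median and 2 of them reached into the range of the low dose (log2FC -1.55, SE 0.22, adjusted p = 6.96e-05). Control mice averaged 20.5 and mice at 15 mg/kg bw/d 18.4, closer to the low dose (23.7) than to the high dose (8.22). Vars1, the valyl-tRNA synthetase, ranged from 5.21 to 18.5 and from 0 to 10.9 (log2FC -1.14, SE 0.28, adjusted p = 0.0122). The helicase gene Ruvbl2 (medians 5.25 and 1.04; log2FC -1.23, SE 0.34, adjusted p = 0.0299) and the cyclin Ccne2 (1.01 to 6.26, median 3.81, against 0 to 4.18, median 1.04; adjusted p = 0.0208) had low values and lost their calls without the 5 mice set apart (adjusted p = 0.14 and 0.113). Over all mice Cyp2d40 was the only DEG of 31 drug-metabolizing cytochromes P450 (62.7 to 127, median 88.3, against 43.5 to 63.2, median 56.4; log2FC -0.61, SE 0.087, adjusted p = 6.96e-05).

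Processed pseudogenes, copies of mRNAs that reads of the parent gene can reach, made up 4 of the 10 DEGs with the largest decreases. Gm43304 had the largest decrease among the DEGs (1.86 to 27.1, median 12.4, against 0 to 14.5, median 3.02; log2FC -1.66, SE 0.40, adjusted p = 0.0124). Gm12693 ranged from 47.2 to 90.7 at the low dose and from 8.21 to 58.0 at the high dose (log2FC -0.92, SE 0.20, adjusted p = 0.00629). The values of Gm12693 in the control (mean 38.0) and at 15 mg/kg bw/d (mean 26.3) were on the side of the high dose (mean 35.0), which set the low dose (mean 62.8) apart from all other groups. Gm2736 (log2FC -1.07, adjusted p = 0.0127) and Gm5277 (-0.94, adjusted p = 0.0476) had means under 3 in every group, and Gm5277 lost its call in 17 of 27 fits without 1 mouse.

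Several lists of immune and matrix genes leaned to lower values at the high dose with few single DEGs. For comparison, 5514 of all 11416 genes tested had a log2FC above 0 (median of all -0.01). Of 35 acute phase genes 26 had a log2FC below 0 (median -0.18) and 2 were downregulated, the orosomucoid paralogs Orm1 and Orm2, which lie side by side on chromosome 4. Orm1 ranged from 419 to 943 and from 322 to 582 (log2FC -0.56, SE 0.11, adjusted p = 0.00311), and Orm2 from 6.87 to 95.7 and from 3.08 to 17.6 (log2FC -1.16, SE 0.35, adjusted p = 0.0434). Without the 5 mice set apart neither was a DEG (log2FC -0.37, adjusted p = 0.0548, and -0.34, adjusted p = 0.498), and 20 of the 35 genes were below 0 (median -0.05). Orm2 also lost its call in 15 of 27 fits without 1 mouse. Of 31 extracellular matrix genes 28 were below 0 (median -0.32) and the collagen chaperone Serpinh1 was downregulated (3.02 to 9.31, median 4.48, against 0.984 to 4.18, median 3.07; log2FC -0.65, SE 0.16, adjusted p = 0.0117). Without the 5 mice 22 were below 0 (median -0.12) and Serpinh1 was no DEG (-0.43, adjusted p = 0.106). Of 39 interferon and antigen presentation genes 33 were below 0 (median -0.25) with no DEG in limma or by the Wilcoxon test and 10 genes at an unadjusted p under 0.05, and without the 5 mice 21 were (median -0.04). In all 3 lists the median thus lay nearer to 0 without these mice. The mice were chosen by Saa1, itself an acute phase gene, so the shift of the acute phase list follows in part from that choice. The same holds for the lost call of Orm2, of which these mice held the 5 highest values in their group. The summed level of the 9 stellate cell markers tested ranged from 281 to 449.8 at the low dose and from 240.5 to 359 at the high dose, and their part in the matrix values was not tested.

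Nkg7, a granule protein of natural killer and cytotoxic T cells, was downregulated (0.992 to 6.26, median 2.09, against 0 to 2.08, median 0.977; log2FC -1.12, SE 0.23, adjusted p = 0.0032). It was listed at 0 in 6 of 14 high-dose mice and in no low-dose mouse, and kept its call without the 5 mice (-1.02, adjusted p = 0.0212). Of 18 listed T, B and NK cell markers 6 could be tested, 5 of these had a log2FC below 0 (median -0.38), and Nkg7 was the only DEG. Ccl5 had a log2FC of -0.82 (adjusted p = 0.136), Igkc of -0.47 (adjusted p = 0.352) and Ighm of 0.17 (adjusted p = 0.793), while Cd3e, Gzma and Klrb1c had a median of 0 in both groups. In limma and by the Wilcoxon test no marker of hepatocytes, cholangiocytes, Kupffer cells, stellate cells, endothelial cells, neutrophils, erythroid cells, exocrine pancreas or gut epithelium was a DEG (57 genes, 14 with an unadjusted p under 0.05, against 20.3% of all genes tested). Short of the log2FC threshold, Trf, Apoa1 and the stellate cell marker Dcn (-0.30, adjusted p = 0.0385 in limma) were lower at an adjusted p under 0.05. The gut marker Fabp2 was higher (0.48, adjusted p = 0.0434 in limma). The haemoglobin genes Hba-a1, Hba-a2, Hbb-bs and Hbb-bt had log2FC values of 0.64 to 0.89 (adjusted p from 0.18 to 0.31).

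Major urinary proteins, lipocalins that male mouse liver secretes under growth hormone, had a median SD of 1.10 on the log2 scale at the low dose and of 0.71 at the high dose over 26 genes, against 0.29 and 0.30 over all genes tested. Of these 20 had a log2FC below 0 (median -0.38) but only Mup4 was a DEG (-0.84, SE 0.24, adjusted p = 0.0372), and it lost its call in 12 of 27 fits without 1 mouse. Mup7 ranged from 80.7 to 8915 at the low dose (median 1209.5) and from 186 to 2055 at the high dose (median 344), and its log2FC of -0.78 was close to its SE of 0.67 (adjusted p = 0.555). The 5 mice set apart were among the 6 lowest of their group. Without them 14 of the 26 genes were downregulated, against 1.39% of all genes, and the log2FC of Mup7 was -2.23 (adjusted p = 0.0124). Leaving out 5 of the 6 lowest mice had to lower the log2FC of Mup7, so this adjusted p is descriptive only. The count of 14 of 26 rests on the same choice of mice and is likewise descriptive only. The pseudogene Mup-ps17 ranged from 69.8 to 1869 and from 10.4 to 969.6 (log2FC -2.20, SE 0.69, adjusted p = 0.0529) and passed the threshold with equal totals (adjusted p = 0.0309). With equal totals 5 of the 26 genes were downregulated, against 1.78% of all genes. The paralogs are near-identical, and their separate values are uncertain.

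The other groups show on which side of the contrast the unusual levels lay. Each of the 200 DEGs was given a position for the control mean on the log2 scale, with 0 at the mean of the low dose and 1 at the mean of the high dose. For the 114 upregulated DEGs the median position of the control was 0.27, and the control mean was nearer to the low dose for 82 and nearer to the high dose for 32. For the 86 downregulated DEGs it was 0.48, with 44 nearer to the low and 42 nearer to the high dose. The mean at 15 mg/kg bw/d was nearer to the low dose for 74 and to the high dose for 40 of the upregulated DEGs (median position 0.28), and nearer to the low dose for 34 and to the high dose for 52 of the downregulated ones (0.65). It lay beyond the high-dose mean for 12 of the upregulated and 26 of the downregulated DEGs. Ehhadh, with positions of -0.01 for the control and 0.00 for 15 mg/kg bw/d, is a gene with a deviating high dose, and Gm12693, with 0.84 and 1.84, is a gene with a deviating low dose. Because the DEGs were chosen on the low and high doses, a mean between the 2 was likely for the other groups, and no test was made.

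**Figure D5:**
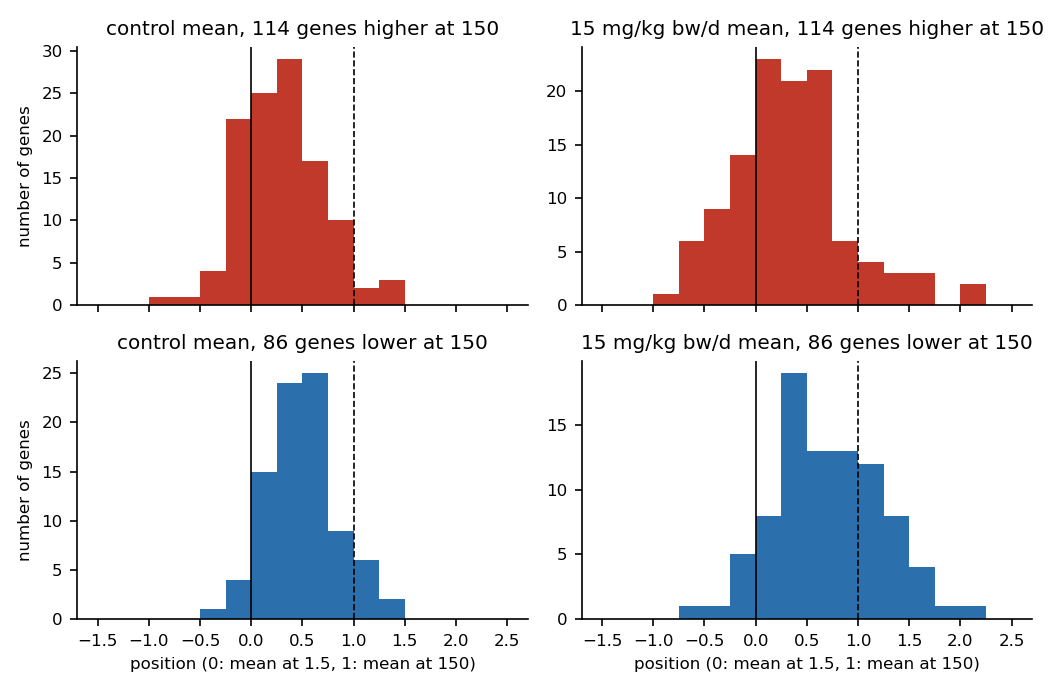
Number of DEGs (y axis) by the position of another group's mean (x axis), with 0 at the mean at the low dose (solid line) and 1 at the mean at the high dose (dashed line). The left panels show the control and the right panels the 15 mg/kg bw/d group, for the 114 upregulated (red) and 86 downregulated DEGs (blue). The red columns gather nearer to 0 (medians 0.27 and 0.28), and the blue ones lie around the middle for the control (0.48) and to the right of it for 15 mg/kg bw/d (0.65).

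The first principal component of the 500 most variable genes, with 13.1% of their variance, did not separate the doses (difference of the means 1.48, 2-sided permutation test with 100000 resamples, p = 0.725; the scores had an SD of 13.9 at the low and of 6.78 at the high dose). Its scores ran from -18.7 to 19.8 at the low dose, where the 5 mice set apart held the 5 highest, and from -8.47 to 12.6 at the high dose. Cidec, Cidea, Ly6d and Lcn2 had the largest positive loadings and Mup13, Hsd3b5, Serpina1e and Mup7 the largest negative ones. The second component, with 9.62% of the variance, did differ (means of -5.82, SD 6.36, and 5.41, SD 7.91; permutation test, p = 0.00058, adjusted p = 0.00116 over both components; tested after the data were seen). Its positive end was made of small RNAs such as Snord83b, Snord118 and Snora5c, and its negative end held Selenbp2, Cyp7a1, Thrsp and Serpina12. Across all genes tested the SD between mice was larger at the low dose for 47.9% of the genes, for 66.7% of the upregulated DEGs and for 44.2% of the downregulated DEGs.

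limma called no DEG among the genes of bile acid synthesis and transport (20 tested), the circadian clock (19), gluconeogenesis and insulin targets (21), lysosomal mTORC1 machinery (30), the proteasome (46), the unfolded protein response (25), NRF2 targets and metallothioneins (16) and iron handling (18), nor among cytosolic (86) and mitochondrial ribosomal proteins (77) and chaperones (36). Of these 386 genes, each counted once, 91 had an unadjusted p under 0.05, against 20.3% of all genes tested. None was called by the Wilcoxon test, whereas Mrpl47 and Psmb8 were lower with equal totals. The medians of these lists ran from -0.09 to 0.11. Rraga (log2FC 0.19, SE 0.11, adjusted p = 0.349), the retinoic acid hydroxylase Cyp26a1 (-0.05, SE 0.27, adjusted p = 0.948) and Gpcpd1 (-0.20, SE 0.20, adjusted p = 0.618) were not called either, and the sign for Cyp26a1 turned without single mice. Cyp3a11, which xenobiotic receptors control, had a log2FC of 0.42 (SE 0.15, adjusted p = 0.0898) over all mice and of 0.65 (adjusted p = 0.0113) without the 5 mice set apart. The value without them comes from a choice made after the data were seen and is descriptive only. By qPCR, in a comparison with the control, the authors report no induction of Cyp3a11.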

How the data were processed

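Liver RNA of 54 mice was sequenced by the authors as QuantSeq 3′ mRNA libraries and processed, per the sources, with the nf-core/rnaseq pipeline on GRCm38, which used STAR for alignment and RSEM and Salmon for quantification. The deposited table holds a signal per gene and mouse, named TPM by the authors. All values of a mouse are whole multiples of 1 step, a pattern that rounding of TPM and a later division by size factors would give, although the sources used here do not state this. Read depth is not kept, no count test was run and the precision of single values is unknown.

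Groups follow the labels, and each mouse was taken as 1 independent sample. Genes with a mean of at least 1 over the 27 mice were tested on log2(value + 1) with limma 3.58.1 in R 4.3.3 (lmFit and eBayes with a trend, low and high dose groups only), with Benjamini-Hochberg adjustment and calls at an adjusted p under 0.05 and a log2FC beyond 0.5. The 1 added before the logarithm understates the change of low genes. The pipeline was tested on simulated data. Principal components were compared by permutation tests with scipy 1.17.1. Positions are from GENCODE release M21 (GRCm38), matched by symbol for 19430 of 20143 symbols, and promoters from RefSeq (GRCm38.p6).

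The members of 48 gene and marker lists, the comparison and the tests were chosen with earlier results of these data known. Named are the 10 DEGs with the largest log2FC in each direction, up to 4 DEGs per list by adjusted p, and a fixed set of genes of lipid metabolism, xenobiotic metabolism and major urinary proteins (the remainder of it, Mup1, Mup11, Mup14, Slc25a22 and Cyp2b10, held no DEG, and Cyp2b10 was too low to be tested); other genes were named after their values were seen.

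As alternatives, the pseudocount was set to 0.1 or 5, the filter was dropped or raised to 5, values were quantile normalized or scaled to equal totals, all 4 groups were fitted together, array weights or robust moderation were added, replicate numbers were entered as a block, the log2FC threshold was dropped, a Wilcoxon rank-sum test replaced limma, and each mouse was left out in turn. The 5 mice with high Saa1 were left out, and the second principal component was tested, only after the data had been seen. Some genes of the lists are not reported here by name.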

Additional observations from a re-analysis of the deposited data

How the results depend on the processing

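Of 200 DEGs (114 higher, 86 lower at 150 mg/kg bw/d), a pseudocount of 5 left 93 (72 and 21), no log2FC threshold gave 695 (385 and 310) and the Wilcoxon test 126 (87 and 39). Equal totals gave 266 (63 and 203), of which 149 were among the 200. All 4 groups in 1 fit gave 183 (107 and 76) and ended the calls of Fabp1, ND3 (adjusted p = 0.115), Gm12693 (0.0798), Scarna2 (0.0927), Gm5277, Elovl3, Serpinh1, Oat and Snord89. Without the 5 mice with high Saa1 there were 372 (213 and 159). Without 1 mouse at a time the counts ran from 157 to 221 (89 to 129 higher, 68 to 97 lower). The replicate number as a block gave 166 DEGs (104 and 62), 152 of them among the 200, but the numbers do not pair mice (mean correlation of deviations over 13 pairs 0.018, from -0.134 to 0.111, and no low-dose mouse correlated best with its own number). The first principal component did not separate the doses under any of 3 alternatives. Over all alternatives, 2588 of 2838 values of the 73 named genes tested kept direction and side of the threshold, 227 lost their call, 17 gained one and 6 changed sign: Aldh9a1 with equal totals (-0.046), Cpt1a without the 5 mice (0.081), and Cyp26a1 in 4 fits without 1 mouse (from -0.14 to 0.13 over all 27). Single mice ended the calls of Acsl1 (0.498 without low-dose replicate 9), Ruvbl2 (adjusted p = 0.0516 without the same mouse), Scarna2 (adjusted p = 0.0514 and 0.0511 without low-dose replicates 5 and 8), Cox7c (0.49 and 0.46 without low-dose replicate 5 and high-dose replicate 10), ND3 (0.48 and 0.43 without low-dose replicate 9 and high-dose replicate 10) and Pdp2 (0.49 without low-dose replicate 10 or high-dose replicate 4 or 7). The causes were not tested. The table keeps no read depth, and low values move in steps of about 1, so that genes with means near 1 are the least certain. Shared batches of mice or libraries are not given in the sources used here.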
